A study of Mus musculus with 64 samples.

Results

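The genes for glucose entry and lactate exchange, 7 in number, were followed in 4 cell populations of the mouse heart. They are the glucose carriers Slc2a1 (GLUT1), Slc2a3 (GLUT3) and Slc2a4 (GLUT4), the lactate carriers Slc16a1 (MCT1) and Slc16a3 (MCT4), and Ldha and Ldhb, which code for the subunits of lactate dehydrogenase. The genes were taken by symbol from a table of 20637 genes, in which 7 of the 7 were found. GLUT1 and GLUT3 sit at the cell surface and supply basal glucose, while GLUT4 is held in vesicles of heart, muscle and fat and moves to the surface under insulin or contraction. MCT1 and MCT4 carry lactate together with protons. MCT1 binds lactate more tightly and serves uptake in heart muscle, and MCT4 is known for export from glycolytic cells. Lactate dehydrogenase interconverts pyruvate and lactate, with the A subunit typical of glycolytic tissue and the B subunit typical of the heart.

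The mice were of the CD1 strain and carried no stated transgene. Surgery was done on postnatal day 1 (P1) or at 8 weeks of age (P56), and hearts were taken 3 days later after a sham operation or a myocardial infarction (MI), in adults by permanent ligation of the left descending coronary artery. Each neonatal sample joined 6 ventricles, dissociated by stirring in enzyme, whereas adult hearts, all male, were digested by Langendorff perfusion, so that age cannot be told apart from the isolation or from sex. The dense layer of a Percoll gradient gave the cardiomyocytes. From the light layer, fibroblasts (CD90+/CD45-/CD31-), leukocytes (CD45+) and endothelial cells (CD31+/CD45-) were sorted. Each of the 16 combinations of population, age and operation had 4 libraries, 64 in all. Nothing in the labels says whether replicates are separate pools or mice. The p-values therefore measure library-to-library spread only, and that spread may be technical. In such bulk samples fewer cells of a type and less RNA per cell cannot be told apart.

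Levels are the deposited normalised read counts, named CPM there and given as mean ± SD of 4 libraries. They are reads divided by a library size that the authors had rescaled, so they need not sum to 1e6. They summed to 1.93 to 2.63 M per library in P56 sham cardiomyocytes and 1.45 to 2.18 M after MI at P56 (M, 1e6), against 0.777 to 1.38 M in the other groups. Every test on the 7 genes was therefore also run on plain reads per 1e6 library reads, an alternative chosen after seeing the data. That lowered the median change of all genes between P1 and P56 sham cardiomyocytes by 1.05 on the log2 scale. The results whose direction or call it changed are named where they stand or in the last section. Changes are log2 differences ± standard error on log2(CPM + 0.5), which understates the change of low genes. Calls are Benjamini-Hochberg adjusted p under 0.05 in limma, over all genes tested. Libraries held 9.59 to 27.5 M reads, so that 3 reads, a floor for counting error only, corresponded to 0.102 to 0.409 CPM. All levels of the 7 genes lay above that floor. The labelled populations carried their own markers. Summed over the 10 cardiomyocyte markers, the cardiomyocyte libraries held 36348 to 177930 CPM. The 8 fibroblast markers summed to 27593 to 76629 CPM in fibroblasts, the 7 endothelial markers to 7027 to 9373 CPM in endothelial cells and the 6 leukocyte markers to 1117 to 4229 CPM in leukocytes. Cardiomyocyte RNA was also present in the sorted cells. It was highest in P56 sham leukocytes, where the cardiomyocyte markers summed to 71876 to 198303 CPM against 1180.2 to 2151 CPM for the leukocyte markers. The P1 sham leukocytes held endothelial markers as well (3152 to 3694 CPM). Endothelial libraries held markers of pericytes and smooth muscle, 6 genes, at 939 to 1061 CPM in P1 sham and 1054 to 1499 CPM in P1 MI. These stood at 2925 to 3978 CPM in P56 sham and 1242 to 1947 CPM in P56 MI, and their part in the endothelial results was not tested. More than 5% of reads were 18S ribosomal RNA in 7 libraries. Mitochondrial ribosomal RNA took 29.9% ± 6.27 of reads in P56 sham cardiomyocytes, 21.7% ± 7.12 in P56 MI, 12.1% ± 3.67 in P1 sham and 11.7% ± 3.21 in P1 MI, and its part in the cardiomyocyte comparisons was not tested.

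On GRCm38 the genes lie at chr4:119108711-119137983 (Slc2a1, plus strand), chr6:122727809-122801640 (Slc2a3, minus), chr11:69942539-69948188 (Slc2a4, minus), chr3:104638668-104658462 (Slc16a1, plus), chr11:120948480-120960868 (Slc16a3, plus), chr7:46841475-46855627 (Ldha, plus) and chr6:142490249-142507957 (Ldhb, minus). The Slc2a1 span holds 2 antisense genes of GENCODE M21 and the Slc2a3 span a processed pseudogene. With the strand setting of the counting not known, reads from such overlaps cannot be told apart. Ldha has 2 named pseudogenes there, neither of them in the deposited table, so reads shared with these copies make the level of Ldha uncertain to that extent. The lactate carriers moved apart with age in leukocytes and endothelial cells and the dehydrogenase subunits in the sorted cells, and the start regions of these 2 pairs are shown so that their letters can be compared. Each is the stretch of 250 bases before a RefSeq start site (GRCm38.p6), read 5′ to 3′ on the gene's strand. Capitals mark ACGTG, the core of the sites that hypoxia-inducible factors bind, and GCGTG, a looser form of that core, on both strands. CACGTG, the E-box that MYC binds, contains ACGTG on each strand and counts as 2 matches of it.
Slc16a1, chr3:104638414-104638663, plus strand: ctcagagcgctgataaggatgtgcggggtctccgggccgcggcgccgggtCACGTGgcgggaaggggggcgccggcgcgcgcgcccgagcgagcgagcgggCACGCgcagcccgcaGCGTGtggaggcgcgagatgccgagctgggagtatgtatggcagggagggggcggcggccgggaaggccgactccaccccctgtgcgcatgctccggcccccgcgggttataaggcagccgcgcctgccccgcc
Slc16a3, chr11:120948817-120949066, plus strand: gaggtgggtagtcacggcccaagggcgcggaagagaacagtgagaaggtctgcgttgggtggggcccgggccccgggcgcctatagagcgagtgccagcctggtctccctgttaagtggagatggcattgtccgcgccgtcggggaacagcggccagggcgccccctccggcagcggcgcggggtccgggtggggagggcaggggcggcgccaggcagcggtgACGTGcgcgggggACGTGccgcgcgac
Ldha, first start, chr7:46845554-46845803, plus strand: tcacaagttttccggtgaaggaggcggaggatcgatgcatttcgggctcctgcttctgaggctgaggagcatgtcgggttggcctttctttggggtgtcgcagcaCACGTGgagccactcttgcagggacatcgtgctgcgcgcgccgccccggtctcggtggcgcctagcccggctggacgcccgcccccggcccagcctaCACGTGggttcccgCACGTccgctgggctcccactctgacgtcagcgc
Ldhb, chr6:142507958-142508207, minus strand: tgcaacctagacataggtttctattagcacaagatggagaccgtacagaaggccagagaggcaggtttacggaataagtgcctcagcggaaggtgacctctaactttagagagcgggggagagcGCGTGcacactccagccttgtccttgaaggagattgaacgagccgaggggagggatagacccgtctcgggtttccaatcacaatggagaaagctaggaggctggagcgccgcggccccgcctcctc
Windows were found for 5 of the 7 genes, Slc2a1, Slc16a1, Slc16a3, Ldha and Ldhb. ACGTG occurred 5 times before the first start of Ldha, 2 of its stretches being CACGTG, and 0 times before Ldhb. The window before a second RefSeq start of Ldha, not shown, held 0 ACGTG and 1 GCGTG, the same counts as Ldhb. Slc16a3 held 2 separate ACGTG, and Slc16a1 held 2 matches from 1 CACGTG. Slc2a1 held 1 ACGTG and 1 GCGTG. Of 32851 RefSeq windows of this length, 16.6% held at least 1 ACGTG, 6.81% at least 2 and 1.22% at least 3, and 28.2% held at least 1 GCGTG. The Slc16a3 and Ldha windows lie inside the annotated spans, which begin at earlier starts. These matches describe the letters of the windows and no binding was measured.

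**Figure D1:**
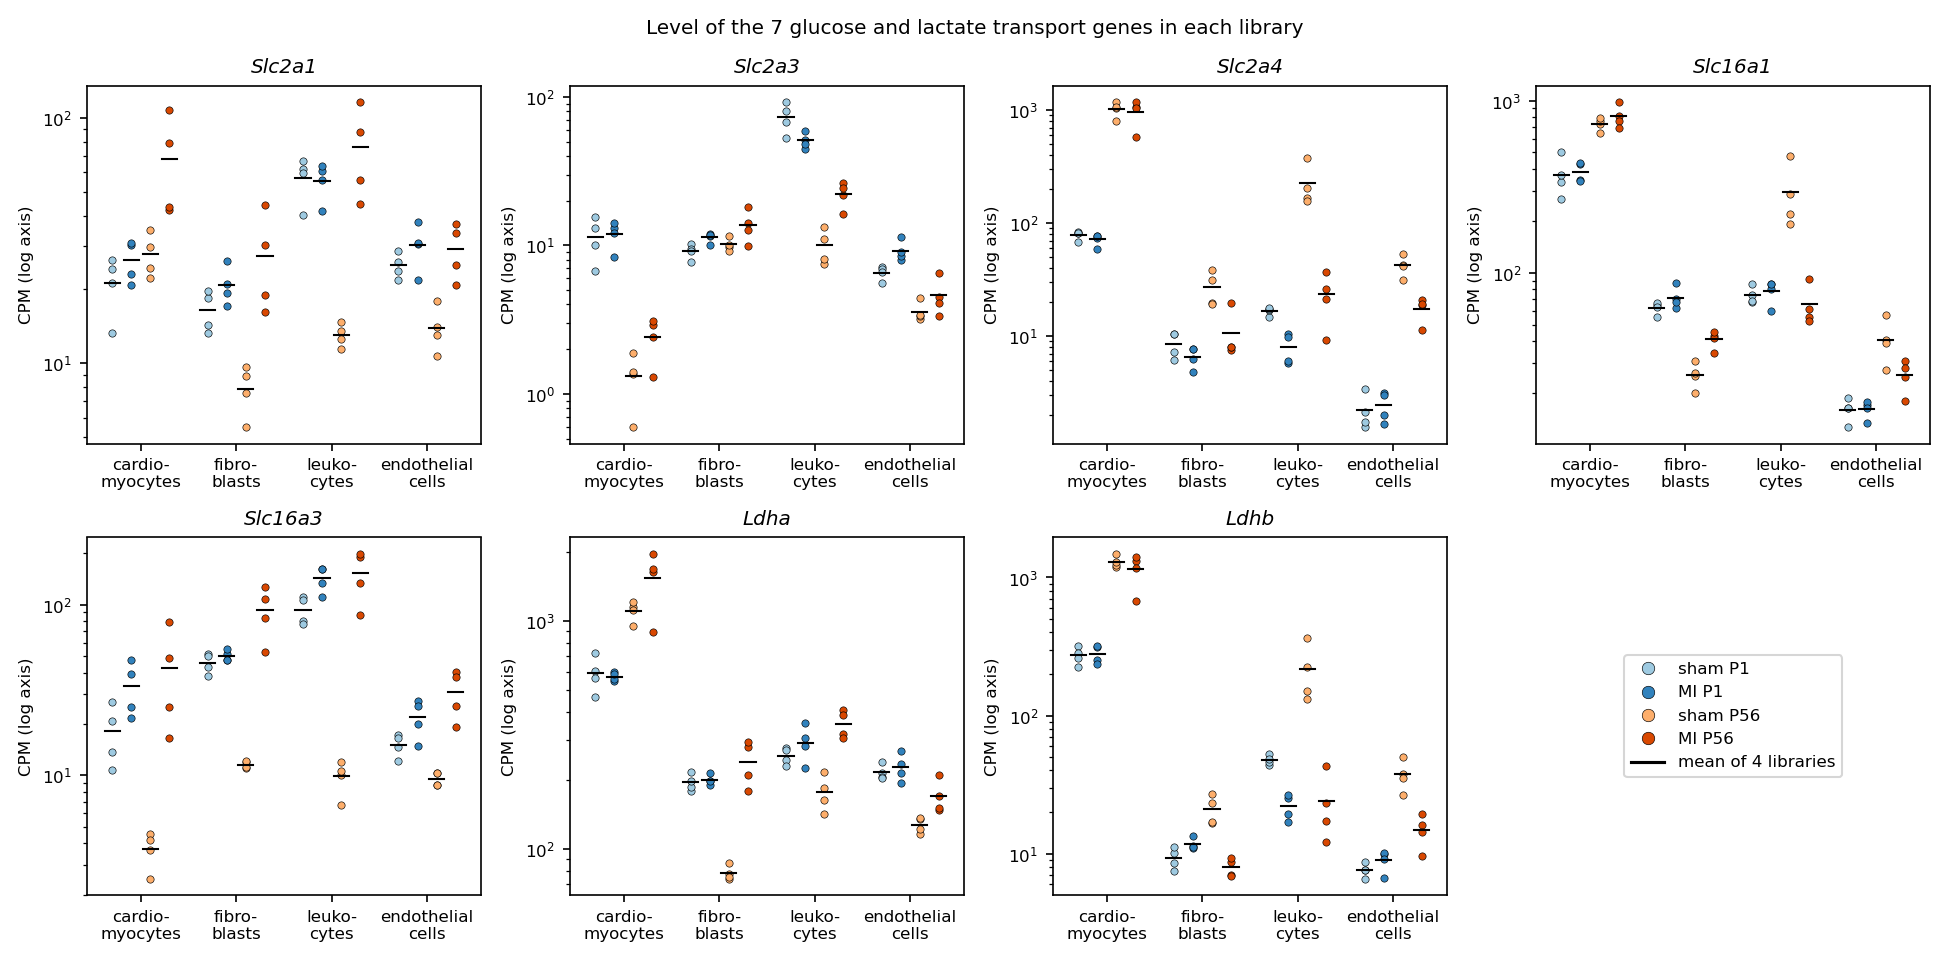
Level of each gene in CPM (log axis) in the 64 libraries. Points are libraries, coloured by age and operation, and bars are means of 4. In these deposited values Slc2a4, Slc16a1, Ldha and Ldhb are highest in cardiomyocytes within each age and operation, and Slc16a3 is lowest in the P56 sham group of every population.

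The first comparison asked how the genes differed between sham hearts operated at P56 and at P1. In cardiomyocytes 6 of the 7 genes changed, 4 up and 2 down, where 70.4% of 15461 genes passed the test, 33.3% up and 37.0% down. On plain reads per 1e6 the split was 2 up and 3 down, and 12.9% of all called genes were up, against 47.3% of them on the deposited values. Fibroblasts had 6 calls (67.0% of genes), 2 up and 4 down (34.8% and 32.2%), and the share of all calls that were up was 52.01% there and 63.8% on plain reads per 1e6. Leukocytes (67.1%) and endothelial cells (62.9%) had 7 each, 3 up and 4 down, beside 32.5% up and 34.5% down of all genes in leukocytes and 33.6% and 29.3% in endothelial cells. With most genes called, those counts say nothing particular about these 7, and sizes and directions are given instead.

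The insulin-regulated carrier Slc2a4 rose with age in all 4 populations. In sham cardiomyocytes its level was 82.4, 83.3, 82.4 and 68.3 CPM at P1 and 1037, 791, 1171 and 1056 CPM at P56. All 4 adult libraries lay far above every neonatal one, and the log2 change was 3.66 ± 0.20, adjusted p = 2.92e-11. On plain reads per 1e6 it was 2.48 and also passed. In the sorted cells Slc2a4 went from 8.57 ± 2.21 to 27.2 ± 9.36 CPM in fibroblasts (1.58 ± 0.29, adjusted p = 1.25e-04). It rose from 16.7 ± 1.28 to 226 ± 101 CPM in leukocytes (3.62 ± 0.34, adjusted p = 1.44e-07) and from 2.21 ± 0.826 to 42.3 ± 8.86 CPM in endothelial cells (4.00 ± 0.23, adjusted p = 6.23e-10). The summed cardiomyocyte markers rose in the same sorted libraries, from 231 to 418 CPM up to 2659 to 5722 CPM in fibroblasts, from 16879 to 22624 up to 71876 to 198303 CPM in leukocytes and from 600.4 to 2240.5 up to 8684 to 19894 CPM in endothelial cells. Within the 4 P56 sham libraries the order of Slc2a4 was that of the markers in 3 of the 3 sorted populations. Over all 12 sorted groups of 4 libraries the orders matched in 4. The part of cardiomyocyte RNA in these rises was not tested.

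Slc2a1, the basal glucose carrier, did not follow Slc2a4. In cardiomyocytes it stood at 21.4 ± 5.79 CPM at P1 and 27.9 ± 5.68 CPM at P56, and the difference of 0.40 ± 0.28, adjusted p = 0.208, did not pass. Its direction depended on the scaling, being -0.75 on plain reads per 1e6 (adjusted p = 0.0408). It fell with age in the 3 sorted populations. Leukocytes showed the largest of these differences, with 66.7, 40.1, 61.8 and 59.7 CPM at P1 and 13.5, 14.8, 11.4 and 12.5 CPM at P56 (-2.06 ± 0.24, adjusted p = 1.68e-06). The neonatal and adult ranges were far apart there, while the leukocyte markers summed to 1117 to 1665 CPM at P1 and 1180.2 to 2151 CPM at P56. The endothelial markers in these libraries summed to 3152 to 3694 CPM at P1 and 330.7 to 485 CPM at P56. Those of monocytes and macrophages went the other way, 2646 to 3469 CPM at P1 and 4793 to 9238 CPM at P56. The part of such a shift between leukocyte types was not tested. In fibroblasts Slc2a1 went from 16.5 ± 3.11 to 7.90 ± 1.81 CPM (-1.02) and in endothelial cells from 25.1 ± 2.93 to 13.9 ± 3.01 CPM (-0.84), in both without overlap. Markers of red cells, 6 genes, summed to 529 to 787 CPM in P1 sham leukocytes and 4.31 to 39.03 CPM at P56. In sham endothelial cells they went from 375 to 438 down to 11.03 to 122 CPM. In sham cardiomyocytes they went from 1309 to 1847 down to 2.66 to 86.7 CPM. In sham fibroblasts the ages overlapped, 9.01 to 17.7 and 6.68 to 64.2 CPM. P1 MI leukocytes held 58.04 to 114 CPM of them, with Slc2a1 at 55.5 ± 9.89 CPM. Their part in these differences of Slc2a1 was not tested.

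Slc2a3, a high-affinity glucose carrier of neurons and blood cells, was highest in neonatal leukocytes. Its level there was 68.2, 80.8, 53.04 and 92.01 CPM in sham libraries at P1 against 7.55, 13.4, 10.99 and 8.06 CPM at P56 (-2.82 ± 0.19, adjusted p = 5.54e-09). Neutrophil markers moved the same way in these libraries, 8 genes summing to 1551 to 3107 CPM at P1 and 27.5 to 80.0 CPM at P56, and the part of these and of the endothelial markers in this difference or in those of Slc2a1 and Slc16a3 in leukocytes was not tested. In cardiomyocytes Slc2a3 fell from 11.4 ± 3.79 to 1.31 ± 0.534 CPM (-2.70 ± 0.29, adjusted p = 1.68e-07). The P1 cardiomyocyte libraries also held more leukocyte markers, 77.3 to 171 against 12.4 to 47.0 CPM, and the part of other cells was not tested. Endothelial cells fell from 6.56 ± 0.695 to 3.58 ± 0.585 CPM (-0.80), and fibroblasts stood at 9.14 ± 1.00 and 10.1 ± 1.02 CPM, a difference that did not pass (0.14 ± 0.15, adjusted p = 0.402).

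Of the lactate carriers Slc16a3 was lower at P56 in every population, while the direction of Slc16a1 differed between populations and, in cardiomyocytes, between scalings. Slc16a1, the carrier linked to lactate uptake, stood in sham cardiomyocytes at 504, 267, 337 and 367 CPM at P1 and 730.0, 764, 644 and 789.9 CPM at P56 (1.02 ± 0.19, adjusted p = 8.67e-05). The libraries of both ages did not overlap, but the change was -0.062 under quantile normalization and -0.16 on plain reads per 1e6 (adjusted p = 0.534), so neither its direction nor its call held under these scalings. Slc16a3, the carrier linked to lactate export, fell in the same cells from 13.8, 10.8, 26.9 and 20.97 CPM to 2.48, 3.68, 4.53 and 4.21 CPM (-2.08 ± 0.39, adjusted p = 1.13e-04). Every adult library was below every neonatal one. The same cardiomyocyte libraries held less marker RNA of other cells at P56, with fibroblast markers at 309 to 958 against 2400.2 to 6163 CPM, neutrophil markers at 0.621 to 3.93 against 111 to 619 CPM and leukocyte markers as given for Slc2a3, and their part in the fall was not tested. Slc16a3 was lower at P56 in the sorted populations too, from 45.7 ± 6.24 to 11.6 ± 0.532 CPM in fibroblasts (-1.93) and from 93.6 ± 17.3 to 9.87 ± 2.24 CPM in leukocytes (-3.19). The endothelial difference was smaller, 15.1 ± 2.25 to 9.58 ± 0.894 CPM (-0.63 ± 0.21, adjusted p = 0.0155). Slc16a1 fell in fibroblasts, from 62.3 ± 5.09 to 25.5 ± 4.44 CPM (-1.28). It rose in leukocytes, from 74.3 ± 8.58 to 293 ± 128 CPM (1.89), and in endothelial cells, from 16.01 ± 2.49 to 40.9 ± 12.3 CPM (1.29). In these latter 2 populations its order over the 4 P56 sham libraries was that of the summed cardiomyocyte markers, which had risen as given for Slc2a4. Over all 12 sorted groups the orders matched in 3, and the part of cardiomyocyte RNA was not tested.

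In the deposited values both subunits of lactate dehydrogenase were most abundant in adult cardiomyocytes. Ldhb was 321, 285, 259 and 226 CPM in sham cardiomyocytes at P1 and 1485, 1194, 1222 and 1298 CPM at P56, with no overlap (2.26 ± 0.21, adjusted p = 2.29e-08). Ldha was 726, 464, 601 and 562 CPM at P1 and 1153, 1120.5, 1213 and 946 CPM at P56, again without overlap (0.93 ± 0.21, adjusted p = 7.73e-04). The direction of Ldha also depended on the scaling, its change being -0.41 (adjusted p = 0.0260) under quantile normalization and -0.26 (adjusted p = 0.268) on plain reads per 1e6, while that of Ldhb kept its direction and call under each alternative run. In the sorted cells the subunits moved apart. Ldha fell from 196 ± 17.1 to 78.5 ± 5.54 CPM in fibroblasts (-1.31), from 257 ± 21.6 to 177 ± 31.5 CPM in leukocytes (-0.54) and from 217 ± 15.9 to 128 ± 9.98 CPM in endothelial cells (-0.76). Ldhb rose from 9.30 ± 1.61 to 21.02 ± 5.01, from 47.7 ± 3.56 to 218 ± 107 and from 7.61 ± 0.841 to 37.6 ± 9.80 CPM in the same order (1.12, 2.07 and 2.20).

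Set against the level in cardiomyocytes of the same age and operation, the P56 sham values of Slc2a4, Slc16a1, Ldha and Ldhb in sorted cells lay within the range of the cardiomyocyte markers. Ttn alone set the top of each range, and Ryr2 came next, at 3.02% in fibroblasts, 10.5% in endothelial cells and 87.1% in leukocytes. Ldha and Slc16a1 in fibroblasts and Ldha in endothelial cells lay between Ryr2 and Ttn. Ttn held 75108.5 CPM of a mean marker sum of 110722 CPM in P56 sham leukocytes, and 24473 of 157093 CPM in P56 sham cardiomyocytes. In P56 sham fibroblasts the 10 markers stood at 0.317% to 10.8% of their cardiomyocyte level (median 1.18%), Slc2a4 at 2.68%, Slc16a1 at 3.49%, Ldha at 7.09% and Ldhb at 1.62%. In endothelial cells the markers stood at 1.12% to 36.4% (median 3.97%), Slc2a4 at 4.17%, Slc16a1 at 5.59%, Ldha at 11.6% and Ldhb at 2.89%. In leukocytes the same 10 markers stood at 6.92% to 307% (median 29.8%), with Slc2a4 at 22.2%, Slc16a1 at 40.0%, Ldha at 16.02% and Ldhb at 16.8%. Ldha had fallen with age in these cells while the other 3, apart from Slc16a1 in fibroblasts, had risen. Slc2a3 and Slc16a3 were instead more abundant in P56 sham fibroblasts than in cardiomyocytes, at 773% and 311% of the cardiomyocyte level. None of the 10 cardiomyocyte markers was at 0 in any sorted library.

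**Figure D2:**
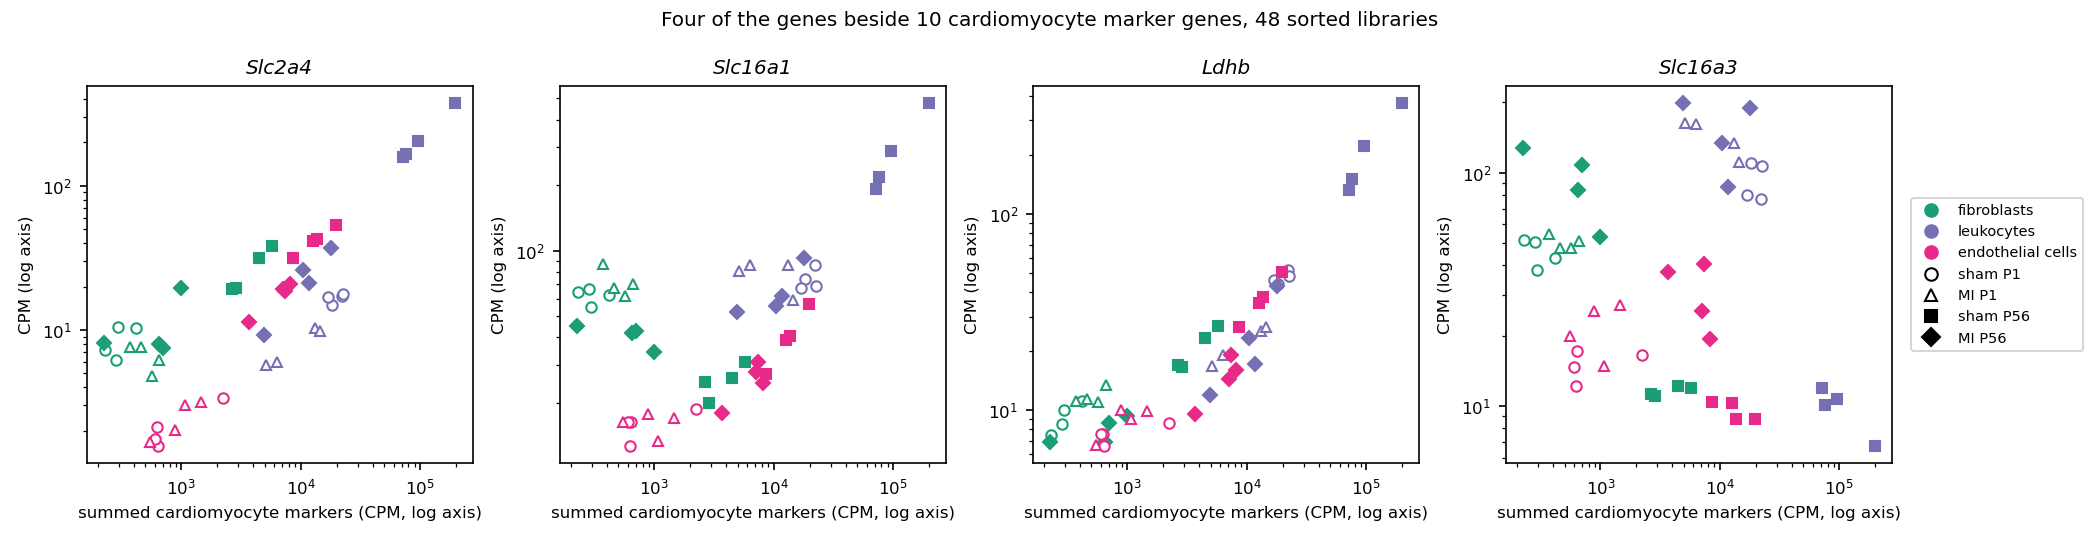
CPM of Slc2a4, Slc16a1, Ldhb and Slc16a3 (log axis) against the summed CPM of 10 cardiomyocyte markers (log axis) in the 48 sorted libraries, coloured by population, with a symbol for each age and operation. Slc2a4 and Ldhb are highest in the P56 sham leukocyte libraries, which hold the most marker RNA, and Slc16a3 is lowest in them among leukocytes.

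The next comparison placed the 4 populations beside one another in sham hearts, in 6 pairs at each age, fitted over the 32 sham libraries. At P1 cardiomyocytes differed from fibroblasts in 5 of the 7 genes (69.1% of 17618 genes called), from leukocytes in 7 (66.4%) and from endothelial cells in 5 (71.2%). Fibroblasts and leukocytes differed in 6 (63.9%), fibroblasts and endothelial cells in 4 (55.4%) and leukocytes and endothelial cells in 6 (52.6%). At P56 the same pairs gave 7 (82.4%), 7 (78.4%), 7 (82.0%), 5 (67.9%), 6 (52.9%) and 5 (65.4%). On plain reads per 1e6 the P56 counts were 6 (81.9%), 5 (75.6%), 6 (83.6%), 4 (61.7%), 6 (45.5%) and 4 (63.8%). Slc2a4, Slc16a1, Ldha and Ldhb were higher in cardiomyocytes than in each other population at both ages, by 2.21 to 4.92 for Slc2a4 at P1 and 2.24 to 5.24 at P56 on the log2 scale. For Ldhb the differences were 2.50 to 5.07 at P1 and 2.68 to 5.94 at P56. Slc16a3 was lower in cardiomyocytes than in leukocytes at both ages (-2.40 and -1.29) and lower than in fibroblasts (-1.39 and -1.54). Against endothelial cells it did not differ past the threshold at P1 (0.18 ± 0.20, adjusted p = 0.439) and was lower at P56 (-1.28). Slc2a1 was lower in cardiomyocytes than in leukocytes at P1 (-1.42 ± 0.20, adjusted p = 2.83e-07). At P56 it was higher on the deposited values (1.05 ± 0.20, adjusted p = 1.86e-05) and -0.082 on plain reads per 1e6 (adjusted p = 0.786). On that scaling its P56 difference from endothelial cells changed sign too, from 0.98 to -0.48 (adjusted p = 0.0904), that from fibroblasts was 0.44 (adjusted p = 0.126), and Slc16a1 no longer differed past the threshold between P56 cardiomyocytes and leukocytes (0.25, adjusted p = 0.353). Slc2a3 was lower in cardiomyocytes than in endothelial cells at P56 (-1.21 ± 0.22, adjusted p = 7.60e-06). At P1 it was higher there (0.69 ± 0.22, adjusted p = 0.00563), a call lost under quantile normalization (0.43, adjusted p = 0.0721) and on plain reads per 1e6 (0.37, adjusted p = 0.226). At P56 libraries of the same replicate number deviated together across populations, with correlations of 0.118 to 0.415 in the sham groups. A fit with the replicate number within each age as a block kept each of the 70 calls of this comparison.

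Over all 16 groups of deposited values Slc2a4 spanned the widest range of means, 459-fold between P56 sham cardiomyocytes and P1 sham endothelial cells, and Ldhb spanned 171-fold. Slc2a3 spanned 55.99-fold, Slc16a1 50.6-fold, Slc16a3 40.9-fold, Ldha 19.7-fold and Slc2a1 9.60-fold. When each gene's 16 groups were put in order, most neighbours overlapped in their libraries, 13 of 15 pairs for Slc2a1 and Ldhb, 12 for Slc2a3 and Slc16a3 and 11 for Slc2a4, Slc16a1 and Ldha. Some steps between neighbours had no overlap. For Slc2a1 the first 4 places, MI and sham leukocytes other than P56 sham and MI cardiomyocytes at P56, did not overlap with the fifth. Further down, though, 1 library of P56 MI fibroblasts at 44.0 CPM lay above the lowest library of these 4 groups, at 40.1 CPM. For Slc2a4 the P56 cardiomyocytes stood above P56 sham leukocytes, which stood above the P1 cardiomyocytes, each step without overlap. For Slc16a3 the last 4 places were the 4 P56 sham groups, with 12.1 CPM in their highest library against 12.2 CPM in the lowest of the next group. They were not apart from all higher groups, since the P1 sham cardiomyocytes had a library at 10.8 CPM.

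In neonatal hearts none of the 7 genes passed the test after MI outside the leukocytes. In limma 0 of the 7 passed in cardiomyocytes (0.343% of genes called), fibroblasts (2.37%) and endothelial cells (0.216%), with 1, 0 and 2 genes at an unadjusted p under 0.05, and 0 passed in edgeR or DESeq2 in these 3 populations. The largest of the uncalled values was that of Slc16a3 in cardiomyocytes, 39.05, 47.2, 25.2 and 21.6 CPM after MI against 13.8, 10.8, 26.9 and 20.97 CPM in sham. The groups overlapped and the difference was 0.87 ± 0.39, adjusted p = 0.403. In neonatal leukocytes 4 genes passed, where 45.2% of genes did. Slc2a4 fell from 16.7 ± 1.28 to 7.98 ± 2.43 CPM (-1.07 ± 0.34, adjusted p = 0.0177) and Ldhb from 47.7 ± 3.56 to 22.1 ± 4.73 CPM (-1.12 ± 0.33, adjusted p = 0.0115). The call of Slc2a4 was lost without MI replicate 2 or 4 (adjusted p up to 0.0594). The summed cardiomyocyte markers were lower in the same MI libraries, 5123 to 14457 against 16879 to 22624 CPM, and endothelial markers too, 369 to 655 against 3152 to 3694 CPM. Their part in the falls was not tested. Slc2a3 fell (-0.50 ± 0.19, adjusted p = 0.0460) and Slc16a3 rose (0.60 ± 0.24, adjusted p = 0.0469), both close to the threshold. Leukocyte markers were higher in these MI libraries, 3083 to 3714 against 1117 to 1665 CPM, as were those of monocytes and macrophages, 8452 to 9925 against 2646 to 3469 CPM, and their part was not tested. Without the libraries over 5% 18S the adjusted p of Slc2a3 was 0.163, on plain reads per 1e6 it was 0.241, and edgeR gave 0.0561 for Slc16a3. Leaving out single libraries gave counts of 1 to 4, the count falling by more than 1.5 times without sham replicate 2 or 4 or MI replicate 1, 2 or 4.

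**Figure D3:**
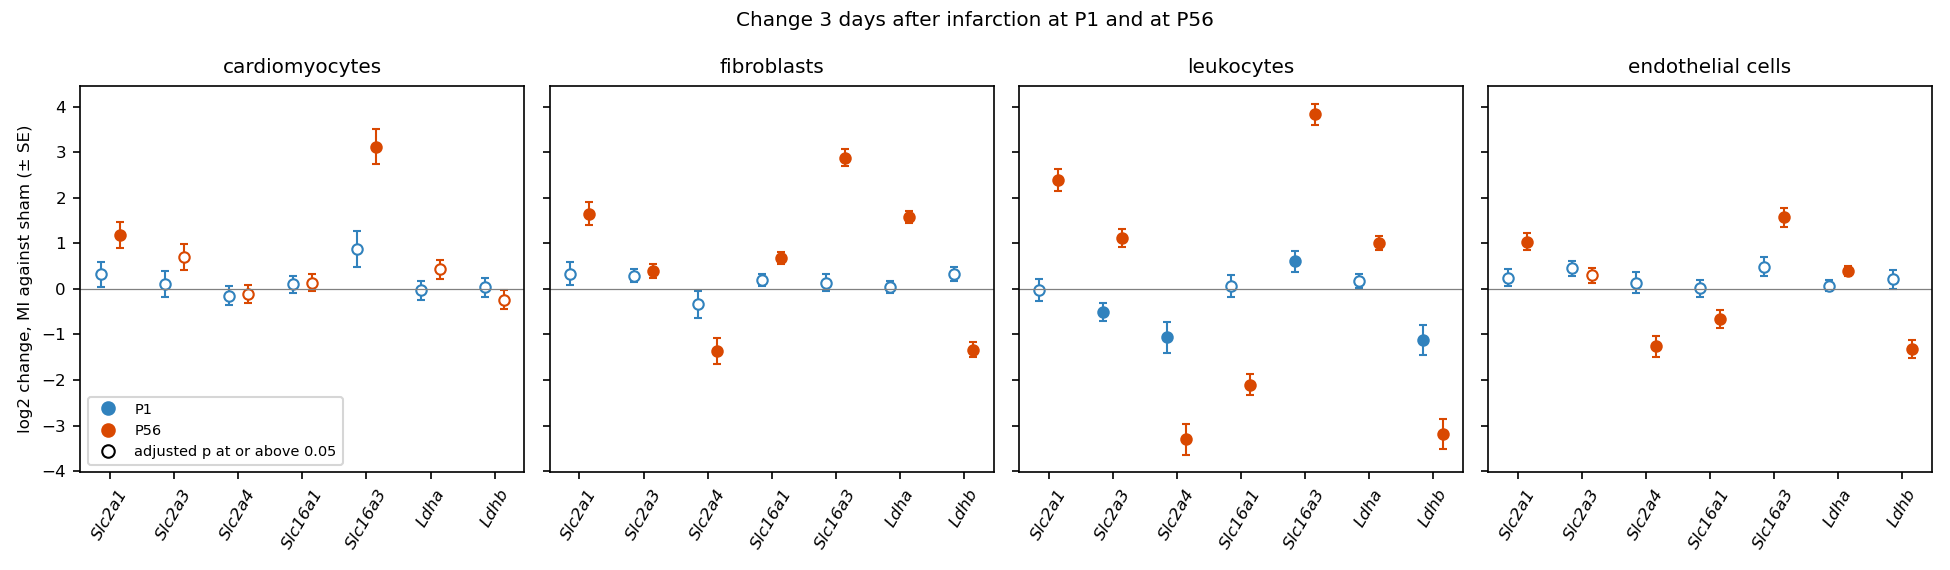
Change after infarction on the log2 scale (± standard error) for the 7 genes in each population at P1 and P56. Filled points passed the adjusted threshold and open points did not. At P56 Slc16a3 and Slc2a1 were higher after infarction in all 4 populations.

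In adult hearts the same comparison called 2 of the 7 genes for cardiomyocytes (9.69% of genes), 7 for fibroblasts (50.0%), 7 for leukocytes (59.5%) and 6 for endothelial cells (20.4%). Slc16a3 and Slc2a1 rose in all 4 populations. Ldha rose in the 3 sorted populations, in which Slc2a4 and Ldhb fell. The 4 populations are not independent here. In 22 of 24 pairs of MI libraries of the same replicate number from different populations the deviations from the group means correlated at over 0.1 (0.0818 to 0.451), and MI replicates 1 and 4 were the higher ones for Slc2a1 and for Slc16a3 in each population.

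Slc16a3 had the largest adult response of the 7 genes in each population by size of the log2 change. In cardiomyocytes it went from 2.48, 3.68, 4.53 and 4.21 CPM in sham to 79.5, 16.6, 25.05 and 48.5 CPM after MI (3.13 ± 0.39, adjusted p = 5.95e-05). Every infarcted library was above every sham one, although they spread from 16.6 to 79.5 CPM among themselves. In fibroblasts the sham libraries held 11.95, 11.04, 11.2 and 12.1 CPM and the MI libraries 108, 52.8, 83.9 and 128 CPM (2.88 ± 0.19, adjusted p = 1.16e-08). The sham values lay close together and every MI value was above them. In leukocytes sham libraries held 6.71, 10.1, 11.96 and 10.7 CPM and MI libraries 189, 135, 86.8 and 199 CPM (3.84 ± 0.24, adjusted p = 1.25e-08). Endothelial cells rose from 8.81, 8.80, 10.3 and 10.4 CPM to 40.6, 19.3, 25.6 and 37.5 CPM (1.58 ± 0.21, adjusted p = 1.06e-04), the smallest of the 4 changes and still without overlap.

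Markers of other cells moved with these rises. In P56 cardiomyocytes the summed leukocyte markers were 12.4 to 47.0 CPM in sham and 60.5 to 245 CPM after MI, those of monocytes and macrophages 60.5 to 288 and 304 to 687 CPM, and those of fibroblasts 309 to 958 and 1497 to 3324 CPM. After MI the cardiomyocyte libraries held 3.86% of the leukocyte markers' level in MI leukocytes and 5.44% of that of the monocyte and macrophage markers, against 27.8% for Slc16a3 and 89.7% for Slc2a1. Fibroblast markers stood at 4.17% of their level in MI fibroblasts, against 45.6% for Slc16a3. In MI endothelial cells leukocyte markers stood at 2.07% and Slc16a3 at 20.2% of the leukocyte level. In MI fibroblasts these values were 0.348% and 61.1%. These percentages compare whole levels after MI and not the changes from sham. The part of RNA from other cells in the rises of Slc16a3 and Slc2a1 was not tested. In adult leukocytes the leukocyte markers were also higher after MI, 3176 to 4229 against 1180.2 to 2151 CPM, while the cardiomyocyte markers went from 71876 to 198303 down to 4949 to 17788 CPM, and the part of this shift in the leukocyte results was not tested.

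Slc2a1 rose beside Slc16a3. In adult cardiomyocytes its level was 22.2, 24.5, 29.7 and 34.98 CPM in sham and 107, 41.99, 43.5 and 79.4 CPM after MI (1.18 ± 0.28, adjusted p = 0.00986). The groups did not overlap, with 1 MI library at 107 CPM. In fibroblasts Slc2a1 went from 7.90 ± 1.81 to 27.4 ± 12.6 CPM (1.65 ± 0.25, adjusted p = 6.29e-05), in leukocytes from 13.1 ± 1.43 to 75.9 ± 32.2 CPM (2.40 ± 0.24, adjusted p = 1.09e-06) and in endothelial cells from 13.9 ± 3.01 to 29.3 ± 7.53 CPM (1.04 ± 0.19, adjusted p = 0.00116). None of these groups overlapped. The infarcted level of Slc2a1 in adult leukocytes, 44.4 to 116 CPM, overlapped with that of neonatal sham leukocytes, 40.1 to 66.7 CPM. Slc2a3 rose in leukocytes from 9.99 ± 2.72 to 22.1 ± 4.25 CPM (1.12 ± 0.19, adjusted p = 1.37e-04), and by less in fibroblasts (0.39 ± 0.15, adjusted p = 0.0352), where the groups overlapped and the call was lost in a fit of the compared libraries alone (adjusted p = 0.0806). That call was also lost without sham replicate 2, 3 or 4 or MI replicate 1 or 4 (adjusted p up to 0.147) and on plain reads per 1e6 (adjusted p = 0.106). It did not pass in cardiomyocytes (0.70 ± 0.29, adjusted p = 0.146) or endothelial cells (0.30 ± 0.17, adjusted p = 0.218). The cardiomyocyte value passed without MI replicate 2, at an adjusted p of 0.0430.

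Slc2a4 did not pass in adult cardiomyocytes, 1037, 791, 1171 and 1056 CPM in sham and 1053, 1171, 572 and 1038 CPM after MI (-0.12 ± 0.20, adjusted p = 0.775). MI replicate 3 was the low library, and without sham and MI replicates 3 the difference was 0.19. In sorted cells Slc2a4 fell after adult MI, from 27.2 ± 9.36 to 10.8 ± 5.83 CPM in fibroblasts (-1.36 ± 0.29, adjusted p = 0.00100), from 226 ± 101 to 23.5 ± 11.6 CPM in leukocytes (-3.30 ± 0.34, adjusted p = 1.29e-06) and from 42.3 ± 8.86 to 17.5 ± 4.24 CPM in endothelial cells (-1.26 ± 0.23, adjusted p = 0.00133). The fibroblast groups overlapped through 1 MI library at 19.5 CPM. The summed cardiomyocyte markers fell with it, from 2659 to 5722 down to 226 to 989 CPM in fibroblasts, from 71876 to 198303 down to 4949 to 17788 CPM in leukocytes and from 8684 to 19894 down to 3681 to 8205 CPM in endothelial cells. Their part was not tested.

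Slc16a1 did not pass in adult cardiomyocytes (732 ± 63.4 and 810.1 ± 123 CPM, 0.14 ± 0.19, adjusted p = 0.706). It rose in fibroblasts from 30.9, 20.1, 24.98 and 26.2 CPM to 42.98, 34.3, 41.7 and 45.2 CPM (0.68 ± 0.13, adjusted p = 4.22e-04), with no overlap, while the cardiomyocyte markers fell there. It fell in leukocytes from 293 ± 128 to 65.4 ± 18.2 CPM (-2.10 ± 0.24, adjusted p = 2.62e-06), together with the cardiomyocyte markers. In endothelial cells it fell from 40.9 ± 12.3 to 25.3 ± 5.51 CPM (-0.66 ± 0.19, adjusted p = 0.0226), with overlapping groups, and a fit of the compared libraries alone did not call it (adjusted p = 0.0752). It was not called without sham replicate 1 or MI replicate 4 either (adjusted p up to 0.0805).

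Ldha rose in fibroblasts from 74.1, 77.8, 86.5 and 75.7 CPM in sham to 281, 179, 211 and 294 CPM after MI (1.59 ± 0.13, adjusted p = 9.67e-08). All MI libraries lay above the highest sham library. In leukocytes Ldha rose from 177 ± 31.5 to 355 ± 49.00 CPM (1.00 ± 0.15, adjusted p = 3.71e-05) and in endothelial cells from 128 ± 9.98 to 171 ± 29.2 CPM (0.40 ± 0.11, adjusted p = 0.0194). The endothelial call was lost without sham replicate 1 or MI replicate 1 (adjusted p up to 0.0689). In cardiomyocytes Ldha was 1153, 1120.5, 1213 and 946 CPM in sham and 1970.0, 1633, 899 and 1685 CPM after MI, a difference of 0.43 ± 0.21, adjusted p = 0.224. Replicates 1, 2 and 4 of the MI group lay above every sham library and replicate 3 below them. Without MI replicate 3 the change was 0.67 and passed (adjusted p = 0.00631), and on plain reads per 1e6 it was 0.70 and passed (adjusted p = 0.0398). Ldhb fell in the sorted cells, from 21.02 ± 5.01 to 7.95 ± 1.23 CPM in fibroblasts (-1.33 ± 0.16, adjusted p = 6.51e-06), from 218 ± 107 to 23.99 ± 13.6 CPM in leukocytes (-3.20 ± 0.33, adjusted p = 1.30e-06) and from 37.6 ± 9.80 to 14.8 ± 4.04 CPM in endothelial cells (-1.32 ± 0.20, adjusted p = 2.84e-04). The cardiomyocyte markers fell in these populations too, as given for Slc2a4, and their part in the falls of Ldhb was not tested. In cardiomyocytes Ldhb did not pass (1299.7 ± 131 and 1142 ± 326 CPM, -0.23 ± 0.21, adjusted p = 0.532).

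Whether the response to MI differed between the ages was tested as an interaction, the change at P56 minus the change at P1. It passed for 1 of 7 genes in cardiomyocytes (1.75% of genes), 4 for fibroblasts (31.7%), 7 for leukocytes (45.2%) and 3 for endothelial cells (5.41%). Slc16a3 was the gene that passed in all 4 populations. In fibroblasts its adult change exceeded the neonatal one by 2.74 ± 0.27, adjusted p = 4.09e-06, and in leukocytes by 3.23 ± 0.33, adjusted p = 3.77e-06. In cardiomyocytes the value was 2.25 ± 0.55, adjusted p = 0.0432, and in endothelial cells 1.09 ± 0.30, adjusted p = 0.0411. Both of these latter calls were lost when any 1 of 11 of the 16 libraries was left out. The cardiomyocyte call held without P1 sham replicate 2, P1 MI replicate 2, P56 sham replicate 3 or P56 MI replicate 2 or 3, and the endothelial one without P1 sham replicate 1, P1 MI replicate 1 or 2 or P56 MI replicate 2 or 3. Leaving out any other library raised the adjusted p to at most 0.114 for cardiomyocytes and 0.0879 for endothelial cells, and the replicate block ended both calls (adjusted p = 0.0756 and 0.0609). The cardiomyocyte call was also lost with no filter, a pseudocount of 1, each other scaling and no library over 5% 18S (adjusted p = 0.0532 to 0.147), and the endothelial one without P1 replicates 4 (adjusted p = 0.0940). The endothelial count of 3 became 1 without P1 sham replicate 2 or 3. Fibroblasts further differed between ages for Ldha (1.55 ± 0.18, adjusted p = 1.80e-05), Ldhb (-1.66 ± 0.23, adjusted p = 7.52e-05) and Slc2a1 (1.31 ± 0.36, adjusted p = 0.0113). In leukocytes all 7 differed, Slc2a1 by 2.43, Slc2a3 by 1.62 and Ldha by 0.83 upward and Slc2a4 by -2.24, Slc16a1 by -2.16 and Ldhb by -2.08 downward. In endothelial cells Slc2a4 (-1.40 ± 0.33, adjusted p = 0.0214) and Ldhb (-1.53 ± 0.28, adjusted p = 0.00802) passed besides Slc16a3. The cardiomyocyte markers fell after MI in adult fibroblasts, leukocytes and endothelial cells as given for Slc2a4. In P1 fibroblasts they summed to 231 to 418 CPM in sham and 373 to 656 CPM after MI. Their part in these differences was not tested. For Slc2a1 in cardiomyocytes the difference between ages did not pass (0.86 ± 0.39, adjusted p = 0.286).

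The balance within each pair was described on CPM per kilobase of the deposited gene length, with no test, since a share joins 2 of the genes. A share within a library does not depend on how the library is scaled. Ldha made up 50.7% ± 4.72 (SD, n = 4) of Ldha plus Ldhb in P1 sham cardiomyocytes and 49.6% ± 2.91 after neonatal MI. At P56 the shares of the sham libraries were 27.1, 31.02, 32.2 and 25.9% and those of the MI libraries 41.8, 35.7, 38.8 and 40.97%. The MI libraries all lay above the sham ones, and MI replicate 3, low in both genes, was not apart in this share. In fibroblasts the share was 90.96% ± 1.65 in P1 sham, 89.1% ± 1.17 in P1 MI, 64.4% ± 6.68 in P56 sham and 93.3% ± 2.19 in P56 MI. Leukocytes stood at 72.1% ± 1.02, 85.97% ± 4.74, 29.7% ± 5.80 and 87.99% ± 5.03 in the same order. Endothelial cells stood at 93.1% ± 0.858, 92.4% ± 1.22, 62.3% ± 7.74 and 84.7% ± 3.39. The P56 sham group was the lowest in each population, and in the sorted cells it was also the group with the most cardiomyocyte marker RNA.

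Slc2a1 as a share of Slc2a1 plus Slc2a4 was 20.9% ± 5.45 in P1 sham cardiomyocytes, 26.4% ± 3.75 in P1 MI, 2.64% ± 0.495 in P56 sham and 6.59% ± 2.36 in P56 MI. The P56 MI libraries, 3.39% to 9.08%, lay above the sham libraries, 2.06% to 3.14%, and below all neonatal ones. In P1 sham endothelial cells the share was 91.6% ± 3.30, the highest of the sham groups with leukocytes at 76.4% ± 4.80 and fibroblasts at 65.1% ± 10.1. In P56 sham it was 25.00% ± 8.00 in endothelial cells, 5.93% ± 1.93 in leukocytes and 23.5% ± 8.13 in fibroblasts. After adult MI it was 61.6% ± 11.5, 74.3% ± 12.2 and 69.7% ± 17.6 in the same order, and after neonatal MI 92.1% ± 3.09, 86.8% ± 5.32 and 75.7% ± 2.97. As stated for Ldha, the P56 sham group of each sorted population held the most cardiomyocyte marker RNA. The part of that RNA in either share was not tested.

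**Figure D4:**
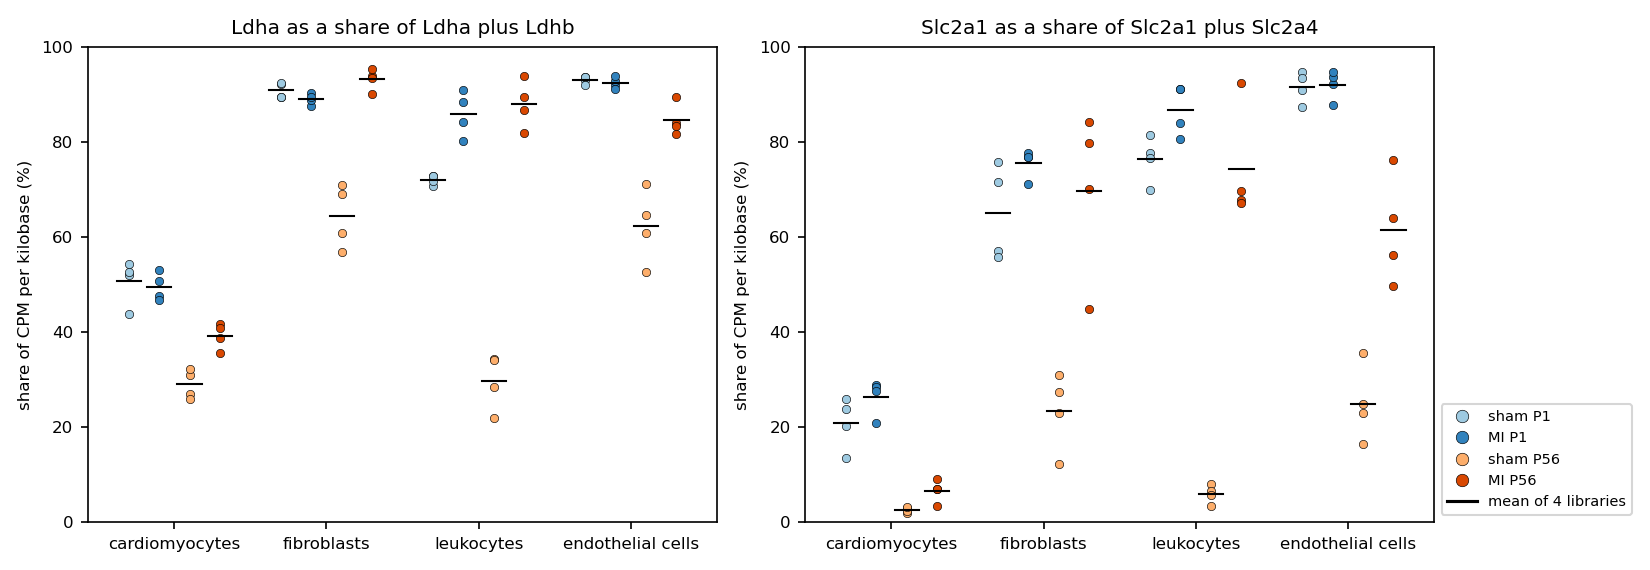
Ldha as a share of Ldha plus Ldhb (left) and Slc2a1 as a share of Slc2a1 plus Slc2a4 (right), in percent of CPM per kilobase. Points are libraries and bars are means of 4. The P56 sham group is the lowest of the 4 groups in each population in both panels.

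Other genes of these routes were counted in lists, and each count is to be read beside the share of all genes called in the same comparison. With age in cardiomyocytes that share was 70.4%, and after adult MI it was 9.69% in cardiomyocytes, 50.0% for fibroblasts, 59.5% for leukocytes and 20.4% for endothelial cells. Of 15 hexokinases and genes of pyruvate entry into mitochondria, 12 rose and 2 fell with age in sham cardiomyocytes, with a median change of 1.87 against -0.092 over all genes. On plain reads per 1e6, 7 rose and 3 fell (0.68 against -1.14). Hk2, the muscle hexokinase that traps glucose in the cell, rose from 72.6 ± 7.93 to 651 ± 62.2 CPM (3.16 ± 0.14, adjusted p = 2.48e-12). Pdk3, a kinase that switches off pyruvate dehydrogenase, fell from 28.02 ± 2.98 to 2.57 ± 1.05 CPM (-3.27 ± 0.22, adjusted p = 2.92e-10). After adult MI 2 of the 15 rose in cardiomyocytes, Hk3, a hexokinase of myeloid cells (2.66 ± 0.44, adjusted p = 5.45e-04), and Pdk3 (1.19 ± 0.22, adjusted p = 0.00121), with a median of -0.19 against 0.084. Leukocyte, macrophage and fibroblast markers were higher in the same libraries, as given for Slc16a3, and their part in the changes of Hk3 and Pdk3 was not tested. Nor was the part of marker RNA of other cells, lower at P56 in sham, in the fall of Pdk3 with age. Pdk3 rose in the sorted cells too, with a change of 1.32 for fibroblasts, 0.90 for leukocytes and 0.72 for endothelial cells. In adult leukocytes 12 of the 15 fell after MI and 2 rose (median -1.34 against 0.025), in fibroblasts 3 of 13 rose and 5 fell (-0.23 against -0.031), a share near that of all genes, and in endothelial cells 2 of 14 rose and 4 fell (-0.33 against 0.016). The cardiomyocyte markers were lower after MI in all 3 of these populations, as given for Slc2a4, and their part in the falls of this and the other lists was not tested. In fibroblasts Hk2 rose after MI both at P1 (0.92 ± 0.23, adjusted p = 0.0385) and at P56 (1.37 ± 0.23, adjusted p = 1.19e-04), the P1 call being lost under median-of-ratios scaling (adjusted p = 0.0582).

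Of 17 genes of GLUT4 traffic and uptake control, 9 rose and 3 fell with age in sham cardiomyocytes (median 0.64 against -0.092), a share called near that of all genes. On plain reads per 1e6, 2 rose and 8 fell (-0.55 against -1.14). Tbc1d4, which holds GLUT4 vesicles back until insulin acts, rose from 51.1 ± 13.4 to 193 ± 35.8 CPM (1.92 ± 0.20, adjusted p = 1.40e-07), and its relative Tbc1d1 fell from 93.8 ± 12.3 to 20.8 ± 4.79 CPM (-2.17 ± 0.19, adjusted p = 9.16e-09). Akt2, the insulin-signalling kinase, rose (2.04 ± 0.23, adjusted p = 2.43e-07). After adult MI 0 of the 17 passed in cardiomyocytes in limma, 3 of them at an unadjusted p under 0.05. In fibroblasts 1 rose and 8 fell (median -0.38 against -0.031). Txnip, which limits glucose uptake, fell there from 609 ± 61.4 to 189 ± 79.1 CPM (-1.76 ± 0.20, adjusted p = 4.02e-06) and in endothelial cells (-0.53 ± 0.14, adjusted p = 0.0116), where 1 rose and 2 fell (median -0.073 against 0.016). In leukocytes 4 rose and 9 fell (-0.23 against 0.025), and 6 rose and 6 fell on plain reads per 1e6 (0.038 against 0.26).

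The other monocarboxylate carriers and lactate enzymes were few, 5 of the 8 listed being tested in cardiomyocytes. With age 3 rose and 2 fell there (median 1.90 against -0.092), and Ldhd, an enzyme of D-lactate, rose from 2.78 ± 0.789 to 72.7 ± 9.56 CPM (4.50 ± 0.20, adjusted p = 2.22e-12). Emb, a chaperone that brings monocarboxylate carriers to the membrane, fell with age in cardiomyocytes (-2.96 ± 0.42, adjusted p = 5.07e-06) and rose after adult MI in all 4 populations. The rise was 2.28 for cardiomyocytes, 1.05 for fibroblasts, 2.67 for leukocytes and 1.21 for endothelial cells. Leukocyte, monocyte and macrophage markers were higher in the infarcted cardiomyocyte libraries, as given for Slc16a3, and their part in the rise of Emb was not tested. Nor was the part of marker RNA of other cells, lower at P56 in sham, in the fall of Emb with age. Bsg, the chaperone that MCT1 and MCT4 need, rose in infarcted adult fibroblasts from 173 ± 13.8 to 288 ± 31.2 CPM (0.73 ± 0.10, adjusted p = 2.49e-05). Among the other hexose carriers 7 of the 11 listed were tested in cardiomyocytes, and 3 rose and 4 fell with age (median -0.75 against -0.092). Slc2a12 rose from 13.2 ± 1.92 to 54.4 ± 7.02 CPM (2.00 ± 0.18, adjusted p = 1.39e-08). After adult MI Slc2a6, a lysosomal family member of macrophages, rose in leukocytes from 4.94 ± 1.82 to 35.9 ± 6.84 CPM (2.79 ± 0.25, adjusted p = 4.10e-07).

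Of 15 regulators of these genes, 8 rose and 4 fell with age in sham cardiomyocytes (median 0.68 against -0.092), and 5 rose and 7 fell on plain reads per 1e6 (-0.51 against -1.14). Klf15, a factor that activates Slc2a4, rose from 6.70 ± 1.30 to 123 ± 23.2 CPM (4.09 ± 0.21, adjusted p = 1.55e-11). Myc, which activates Ldha and Slc2a1, fell from 16.8 ± 4.92 to 1.61 ± 0.392 CPM (-3.01 ± 0.31, adjusted p = 9.69e-08). Fibroblast, neutrophil and leukocyte markers were lower in the same P56 libraries, as given for Slc16a3, and their part in this fall was not tested. After adult MI 1 of the 15 rose in cardiomyocytes, where 9.69% of all genes passed. It was Myc, from 1.61 ± 0.392 to 7.16 ± 3.65 CPM (1.74 ± 0.31, adjusted p = 0.00104). Leukocyte, macrophage and fibroblast markers were higher in these MI libraries, as given for Slc16a3, and their part in the rise of Myc was not tested. In the sorted cells 2 rose and 5 fell in fibroblasts (median -0.23 against -0.031), 3 rose and 8 fell in leukocytes (-0.67 against 0.025) and 2 rose and 4 fell for endothelial cells (-0.13 against 0.016), the fibroblast share being near that of all genes. Hif1a, the oxygen-sensitive factor, and Myc were the 2 risers of smallest adjusted p in each. Hif1a rose from 87.3 ± 3.00 to 200.4 ± 31.5 CPM in fibroblasts (1.18 ± 0.16, adjusted p = 1.49e-05), from 122 ± 26.8 to 309.7 ± 39.2 CPM in leukocytes (1.35 ± 0.15, adjusted p = 2.58e-06) and from 155 ± 6.19 to 309 ± 59.2 CPM in endothelial cells (0.97 ± 0.12, adjusted p = 6.02e-05). Myc rose by 1.97, 1.07 and 2.48 in the same order. Ppara, the fatty acid regulator, fell with them (-1.31, -3.07 and -1.27).

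Likeness was measured as Pearson's r of log2(CPM + 0.5) over the 16 group means, which share the design and, in sorted cells, cardiomyocyte RNA, among 12713 genes of at least 5 CPM in a group. Slc2a4 ran closest to Pde4dip (r = 0.989), Ppp1r12b (0.986) and Ppara (0.983). Ldhb ran closest to Acadvl (0.994), an enzyme of fatty acid oxidation, Fitm1 (0.994) and Homer2 (0.994). Slc16a1 ran closest to Atp1b1 (0.982), a sodium pump subunit, Cdh2 (0.981) and Slc47a1 (0.978). Ldha ran closest to Tomm22 (0.981), Slc25a5 (0.976) and Psma6 (0.976). The other 3 genes had looser companions. They were B4galt5 (0.900), Serpinb2 (0.893) and Ptgs2 (0.877) for Slc16a3, Wdr1 (0.935), Aprt (0.925) and Shq1 (0.901) for Slc2a1, and Flrt3 (0.919), Eif5 (0.907) and Dennd4a (0.905) for Slc2a3. Among the 7 themselves the highest r was 0.943, between Slc2a4 and Ldhb, and Slc16a1 ran with Ldhb at 0.934. Slc16a1 and Slc16a3 stood at -0.18, and Slc2a1 and Slc2a4 at 0.044.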

How the data were processed

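RNA was measured in 64 libraries. Ribosomal RNA had been depleted with Ribo-Zero Gold and the libraries were stranded and single-end, per the labels' protocols. Trimmomatic, STAR, HTSeq and edgeR appear in the submitters' processing notes with no version, beside the builds mm10, GRCm38 and GRCh38 with no role. The strand setting used in counting was not given in these sources. The deposited table holds a normalised signal that the authors called CPM, scaled so that libraries sum to 0.777 to 2.63 M, from which whole reads were recovered for 100% of values within 0.01. Shares used the other deposited quantity, each gene's length in bases. Depth was 9.59 to 27.5 M reads (median 20.6 M), and of 96 replicate pairs 0 were identical. Reads carried no molecular identifiers and are not independent molecules, so a floor of 3 reads covers counting error only. Promoter windows came from RefSeq (GRCm38.p6). Gene coordinates came from the deposited table, and those of the 7 members equal GENCODE M21.

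Groups came from the labels. The labels' replicate numbers paired the P56 sham libraries across populations (24 of 24 correlations of deviations over 0.1) and most P56 MI pairs (22 of 24). At P1 only part of the pairs passed 0.1, 9 of 24 in sham and 14 of 24 after MI. limma 3.58.1 (R 4.3.3) modelled log2(CPM + 0.5) with a variance trend in 4 fits of 16 libraries, 1 for each population, and 1 fit of the 32 sham libraries. A gene entered a fit with 1 CPM or more in 4 or more of its libraries. The procedure was tested on simulated data. Members and lists were chosen with earlier results of these data known. Named genes were the 7 members, the 3 most alike to each by r and, from each list and contrast, the 2 called genes of smallest adjusted p in each direction, of which a selection is printed.

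The following were also run: pseudocounts of 0.1 and 1, tests on all genes, a minimum of 5 CPM, scaling by median of ratios, quantile normalization, a replicate block, fits restricted to the compared libraries, edgeR 4.0.16, DESeq2 1.42.0, shares without length, and omission of each library. Omitting libraries over 5% 18S, P56 cardiomyocyte sham and MI replicates 3 or P1 endothelial sham and MI replicates 4, GENCODE M21 lengths for shares, plain reads per 1e6 library reads and a replicate block within age across populations, were chosen after seeing the data.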

Additional observations from a re-analysis of the deposited data

Results flagged for a closer look

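In 112 groups of 4 libraries, 7 genes in 16 groups, 4 held a library set apart from the other 3, where chance gives about 1 in 20. Slc2a3 was 4.45 CPM in 1 P56 sham endothelial library and Slc2a4 was 68.3 CPM in 1 P1 sham cardiomyocyte library. Slc2a4 was 19.5 CPM in 1 P56 MI fibroblast library, the one with the most cardiomyocyte marker RNA of its group (989 CPM). Ldhb was 13.4 CPM in 1 P1 MI fibroblast library, which likewise held the most marker RNA of its group (656 CPM). That library also had the highest share of 18S ribosomal RNA of its group, 13.5% of reads. In neither of these fibroblast groups was the order of the gene over the 4 libraries that of the markers. The part of cardiomyocyte RNA or of 18S in these values was not tested.

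The response to MI differed between P56 and P1, by the interaction test, for 15 of 28 gene and population pairs, 1 of 7 in cardiomyocytes (1.75% of all genes called), 4 for fibroblasts (31.7%), 7 for leukocytes (45.2%) and 3 for endothelial cells (5.41%). Slc16a3 passed upward in each population, by 2.25 (cardiomyocytes), 2.74 (fibroblasts), 3.23 (leukocytes) and 1.09 (endothelial cells) on the log2 scale. Its cardiomyocyte and endothelial calls were lost with the replicate block (adjusted p = 0.0756 and 0.0609) and without any 1 of 11 of the 16 libraries, and the cardiomyocyte one under 6 other alternatives as well (adjusted p = 0.0532 to 0.147). In fibroblasts Slc2a1 (1.31) and Ldha (1.55) differed upward and Ldhb (-1.66) downward. In leukocytes Slc2a1 (2.43), Slc2a3 (1.62) and Ldha (0.83) differed upward, and Slc2a4 (-2.24), Slc16a1 (-2.16) and Ldhb (-2.08) downward. In endothelial cells Slc2a4 (-1.40) and Ldhb (-1.53) differed downward. The part of cardiomyocyte RNA in the differences of the sorted cells was not tested.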

How the results depend on the processing

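Of 137 called results on single genes, those that changed direction were Slc16a1 and Ldha in P56 against P1 sham cardiomyocytes, under quantile normalization (-0.062 and -0.41) and on plain reads per 1e6 library reads (-0.16 and -0.26), and Slc2a1 between sham P56 cardiomyocytes and leukocytes (-0.082) or endothelial cells (-0.48) on plain reads. Plain reads lack the factor that raises P56 cardiomyocyte values, and they also ended 8 calls and gave 3. Among those ended were Slc2a1 between sham P56 fibroblasts and leukocytes (-0.52, adjusted p = 0.0869) and Ldha between sham P56 leukocytes and endothelial cells (0.12, adjusted p = 0.585). Among those given were, against P1 sham endothelial cells, Slc2a1 in cardiomyocytes (-0.60, adjusted p = 0.0429) and Ldha in fibroblasts (-0.47, adjusted p = 0.0267). In 3312 refits of called results with 1 library left out, 3256 kept their call and 56 lost it. The other sign changes were of results that had not passed, and their cause was not tested. Under quantile normalization Ldha at P1 MI in cardiomyocytes was 0.00041, Slc16a1 at P1 MI in endothelial cells -0.029, and Slc16a3 -0.014 between sham P1 cardiomyocytes and endothelial cells and -0.11 between sham P56 leukocytes and endothelial cells. The cardiomyocyte difference between ages was -0.11, -0.061 and -0.079 for Slc2a4 and -0.10, -0.044 and -0.068 for Slc16a1 under median-of-ratios scaling, edgeR and DESeq2. Slc2a3 between sham P56 fibroblasts and leukocytes was -0.017 in edgeR and -0.023 in DESeq2. On plain reads, in cardiomyocytes, Slc2a1 was -0.75 at P56 against P1 in sham, Ldha 0.084 at P1 MI, and Slc2a4 0.15 and Ldhb 0.033 at P56 MI. P1 MI gave 0.092 for Slc2a1 in leukocytes and -0.0017 for Slc16a1 in endothelial cells. In sham, Slc16a3 was -0.15 between P1 cardiomyocytes and endothelial cells and -0.30 between P56 leukocytes and endothelial cells, and Ldhb -0.045 between P1 fibroblasts and endothelial cells. Without libraries over 5% 18S, P1 MI in cardiomyocytes gave -0.11 for Slc2a3 and -0.044 for Slc16a1, and without P56 cardiomyocyte replicates 3 Slc2a4 at P56 MI was 0.19.

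With 1 library left out, P1 MI in cardiomyocytes ran from -0.11 to 0.27 for Slc2a3, -0.044 to 0.26 for Slc16a1, -0.14 to 0.080 for Ldha and -0.048 to 0.12 for Ldhb. The cardiomyocyte value of Slc2a4 at P56 MI ran from -0.23 to 0.11, and the differences between ages from -0.087 to 0.26 for Slc2a4 and -0.12 to 0.18 for Slc16a1. The same refits gave -0.0051 to 0.090 for Ldha (MI against sham at P1, fibroblasts), -0.044 to 0.24 for Slc2a3 (difference between ages of the MI response, fibroblasts), -0.19 to 0.10 for Slc2a1 (MI against sham at P1, leukocytes) and -0.089 to 0.10 for Slc16a1 (MI against sham at P1, endothelial cells). They gave -0.0090 to 0.15 for Ldha (MI against sham at P1, endothelial cells), -0.035 to 0.39 for Slc16a3 (sham at P1, cardiomyocytes against endothelial cells), -0.064 to 0.20 for Slc2a3 (sham at P56, fibroblasts against leukocytes), -0.18 to 0.056 for Slc2a1 (sham at P56, leukocytes against endothelial cells) and -0.082 to 0.18 for Slc16a3 (sham at P56, leukocytes against endothelial cells).

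The number of the 7 genes whose response differed between ages in cardiomyocytes, 1, was 0 with a pseudocount of 1, no filter, median-of-ratios scaling, quantile normalization, plain reads, the replicate block or no library over 5% 18S, was 2 without P56 replicates 3, and ran from 0 to 2 with 1 library left out. The counts for P1 MI in leukocytes (4) and for the endothelial difference between ages (3) each ran from 1 to 4.

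Within a population replicate numbers did not pair libraries (same-number correlations -0.43 to 0.36). Across populations they did at P56 and in part at P1, and a replicate block within age changed 0 of 84 results between populations. With the replicate block Slc16a3 lost its difference between ages in cardiomyocytes (adjusted p = 0.0756) and endothelial cells (0.0609), Slc16a1 gained one in fibroblasts (0.0404), and the block changed no other call.

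Ldha shares on reads without length were higher, in the order P1 sham, P1 MI, P56 sham and P56 MI, at 68.1%, 67.2%, 46.0% and 57.4% for cardiomyocytes, 95.4%, 94.5%, 78.9% and 96.7% for fibroblasts, 84.3%, 92.7%, 46.7% and 93.8% for leukocytes and 96.6%, 96.2%, 77.3% and 92.0% for endothelial cells, because the deposited length of Ldhb is the shorter one.

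Over all genes, calls for P1 MI in cardiomyocytes (53) were 16 and 95 with pseudocounts of 0.1 and 1, 168 with no filter, 15 at 5 CPM, 154 with quantile normalization, 27 with the replicate block, 275 in the compared libraries alone, 114 on plain reads, 21 in edgeR, 301 in DESeq2, 129 without libraries over 5% 18S and 219 without P56 replicates 3. The cardiomyocyte difference between ages (270.0) gave 129 with quantile normalization, 84 on plain reads, 170.0 with the block, 639 in DESeq2 and 3458 without P56 replicates 3. P56 MI in cardiomyocytes (1498) gave 539 in the compared libraries alone and 4592 without replicates 3. P1 MI in fibroblasts (372) gave 194 at 5 CPM, 626 in DESeq2 and 644 without libraries over 5% 18S. P1 MI in endothelial cells (34) gave 22 and 62 with the pseudocounts, 1 with the block, 5 on plain reads, 135 in the compared libraries alone, 334 in DESeq2 and 449 without P1 replicates 4. The difference between ages gave 2805 against 4989 on plain reads in fibroblasts and 4839 against 7347 in leukocytes. P56 MI in endothelial cells (3207) gave 1878 in the compared libraries alone, and the endothelial difference between ages (850.0) gave 1392 in DESeq2. Median-of-ratios scaling moved the median of all genes by -0.10 for P56 MI in cardiomyocytes and -0.13 for their difference between ages. At 3 reads the floor was 0.102 to 0.409 CPM, below every level of the 7 genes.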
